A study of Mus musculus with 8 samples.

Results

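Galectin 3 and a set of genes typical of phagocytic macrophages were followed in the diaphragm of normal and dystrophic mice. The genes were Lgals3, Gpnmb, Cd68, Mpeg1, Spp1, Trem2, Apoe, Lyz2, Tyrobp and Laptm5. They were chosen by the log2 difference between dystrophic and normal muscle in these same arrays, so their signals and differences are given as a description, with no test of their own. Of the 10 genes, 9 had a probe set that the platform annotation assigns to that gene alone, against 12393 genes so assigned on the whole array. These 9 genes had 12 of 22626 probe sets, controls left out. Laptm5 had 3 probe sets, Trem2 had 2 and the other 7 genes had 1 each. Spp1, osteopontin, is not analysed here.

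RNA came from the diaphragm of 8-week-old mice and was hybridised to 8 Affymetrix arrays, 4 labelled normal and 4 labelled dy/dy. The dy/dy mouse carries a spontaneous recessive mutation of Lama2 and lacks normal laminin α2, the chain that anchors muscle fibres to their basement membrane. The normal arrays carried muscle of mice labelled only as normal, and their genotype and sex are not given in the labels. The RNA of each array came from a pool of 3 diaphragms, with 12 mice in a group, so the spread between arrays is a spread between pools and hides that between single mice. In whole muscle, more cells of a type and more RNA per cell cannot be told apart.

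Damaged muscle draws in monocytes, which become macrophages that engulf fibre debris and later support repair. A phagocyte that is digesting debris makes lysosomal and lipid-handling proteins. It also carries surface receptors that signal through adaptors with an immunoreceptor tyrosine-based activation motif (ITAM). Galectin 3, the product of Lgals3, is a lectin that binds β-galactosides. It is abundant in activated macrophages and gathers on damaged lysosomes.

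Signals are MAS5 intensities in arbitrary units, rescaled so that all arrays had the same trimmed mean. Log2 differences are on the scale of log2(signal + 16), with normal subtracted from dystrophic. A difference was called when its Benjamini-Hochberg adjusted p, from limma over the whole table, was under 0.05. Median signals of the arrays lay between 172 and 207. Lama2 fell in dystrophic muscle by 1.60 on the log2 scale (SE 0.15, limma adjusted p = 8.91e-04), from 846 ± 101 to 270.0 ± 46.1 (SD, n = 4). Its 4 dystrophic pools all lay below its 4 normal pools. The 10 markers of skeletal muscle fibres summed to 162623 to 240803 in normal and 161911 to 183611 in dystrophic pools, and limma called 0 of them, with 0 under 0.05 before adjustment. Normal replicate 4 and dystrophic replicate 3 stood apart from the other arrays, at -36.1 and 34.0 on the first principal component against -11.5 to 12.5, and results are given with and without them. The poly-A spike-in controls fell into 3 levels, 543 and 589 in replicate 1 of each group, 354 and 307 in replicate 3, and 125 to 172 in replicates 2 and 4. Each level held equal numbers of both groups.

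Of the 12 probe sets, 10 passed the filter on low signal, and both probe sets of Trem2 did not. Those of Gpnmb and Mpeg1 and the Laptm5 probe set 1436905_x_at passed only through their dystrophic signals, since their mean log2 values over the normal pools were under the filter level, a signal of 121.9. Over all 12 probe sets 11 were above 0 and the median log2 difference was 0.86, against a median of -0.01 over the 13575 probe sets tested, of which 47.7% lay above 0. Lgals3, Gpnmb, Cd68 and Mpeg1 were called as higher and none was called as lower, while 0.457% of all tested probe sets were called as higher, 0.0368% as lower and 0.494% in either direction. In 7 of the 10 every dystrophic pool lay above every normal pool, which held for 3.87% of all tested probe sets, and the reverse for 2.53%. Since the genes were chosen on this contrast, these counts follow in part from the choice and are no test of it, and a call named for a member below is only a description.

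**Figure D1:**
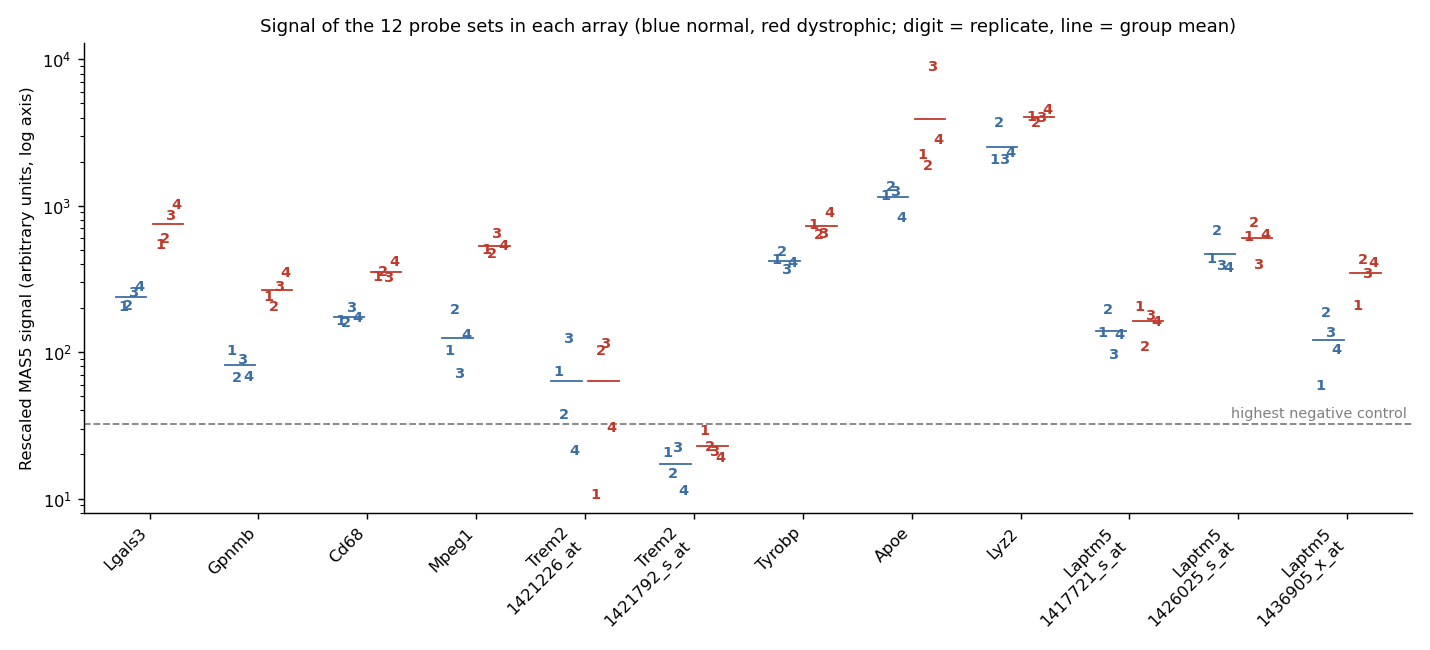
Rescaled MAS5 signal (log axis) of each of the 12 probe sets in the 4 normal arrays (blue) and the 4 dystrophic arrays (red). Each digit is a replicate, each short line a group mean, and the dashed line is the highest negative control at 32.2. The red and blue digits do not overlap for Lgals3, Gpnmb, Cd68, Mpeg1, Tyrobp, Apoe and the Laptm5 probe set 1436905_x_at.

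Lgals3 (probe set 1426808_at) was higher in every dystrophic pool. Its signal was 205, 207, 255 and 279.8 in normal replicates 1 to 4 and 539.6, 594, 844 and 1017 in dystrophic replicates 1 to 4. The lowest dystrophic pool was 1.93 times the highest normal pool. The means were 237 ± 37.0 and 749 ± 223 (SD, n = 4), a ratio of 3.16 and a log2 difference of 1.56 (SE 0.21). Dystrophic replicates 3 and 4 were the high pools of their group and replicates 1 and 2 the low ones. Within the 3 spike-in levels the log2 difference was 1.33 in replicate 1, 1.67 in replicate 3 and 1.63 in replicates 2 and 4. Without the pair of arrays that stood apart it was 1.57.

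The other galectins gave no call. That list had 8 tested genes besides Lgals3, among them Lgals3bp, which encodes a galectin-binding protein and no galectin. Of the 8, 4 lay above 0 and the median log2 difference was 0.02. Limma called 0, and 1 was higher at an unadjusted p under 0.05, against 6.57% of all genes. Lgals1, galectin 1, a lectin of muscle and connective tissue, had 5606 ± 1236 in normal pools and 7948 ± 1387 in dystrophic pools (SD, n = 4). Lgalsl, a galectin-related protein, had 2361 ± 265 and 1995 ± 325.

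Gpnmb (1448303_at) encodes a transmembrane glycoprotein of phagocytes, osteoclasts and pigment cells. It had signals of 102, 66.8, 89.0 and 67.5 in normal replicates 1 to 4 and of 239, 203, 278 and 348 in dystrophic replicates 1 to 4. The lowest dystrophic pool was 2.00 times the highest normal pool. The means were 81.2 ± 17 and 267 ± 62.1 (SD, n = 4), a ratio of 3.29 and a log2 difference of 1.53 (SE 0.21). Dystrophic replicate 4 was the highest pool, as for Lgals3. Within the spike-in levels the difference was 1.12 in replicate 1, 1.49 in replicate 3 and 1.77 in replicates 2 and 4. Without the pair of arrays that stood apart it was 1.44 and was no longer called.

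Cd68 (1449164_at) encodes macrosialin, a heavily glycosylated protein of the macrophage lysosome. Its signal was 163, 158, 200 and 171 in normal replicates 1 to 4 and 325, 352, 319 and 412 in dystrophic replicates 1 to 4. Pools of 1 group lay close together, with a coefficient of variation of 10.9% in normal and 12.1% in dystrophic muscle. The means were 173 ± 18.8 and 352 ± 42.6 (SD, n = 4), a ratio of 2.04 and a log2 difference of 0.96 (SE 0.15). Within the spike-in levels the difference was 0.93, 0.63 and 1.14 in replicate 1, replicate 3 and replicates 2 and 4. The call was lost without normal replicate 2 (0.92), dystrophic replicate 2 (0.96), dystrophic replicate 3 (1.00) or dystrophic replicate 4 (0.89), and without the pair of arrays that stood apart (1.00).

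Mpeg1 (1427076_at) encodes perforin-2, a pore-forming protein that macrophages turn against engulfed bacteria. It had signals of 102, 193, 70.5 and 131 in normal replicates 1 to 4 and of 496, 465, 637 and 528 in dystrophic replicates 1 to 4. The dystrophic pools lay within a narrow band and the normal pools were more scattered, with coefficients of variation of 14.1% and 42.1%. The means were 124 ± 52.3 and 531 ± 75.1 (SD, n = 4), a ratio of 4.28 and a log2 difference of 2.03 (SE 0.24). Normal replicate 2 was the high normal pool, and without it the difference was 2.25. Within the spike-in levels it was 2.12, 2.92 and 1.54 in replicate 1, replicate 3 and replicates 2 and 4. Without the pair of arrays that stood apart it was 1.99.

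**Figure D2:**
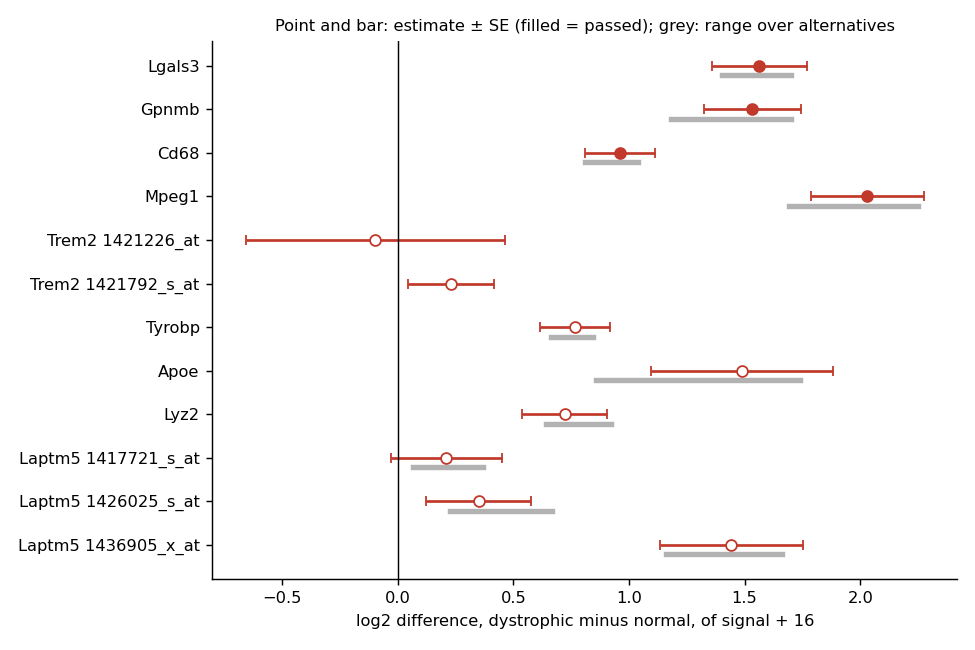
The log2 difference of each probe set, dystrophic minus normal, with its standard error. Filled points were called, and grey bars span the values over up to 22 alternative fits of the probe sets that passed the filter. The grey bar of Apoe reaches down to 0.86 and that of Mpeg1 runs from 1.69 to 2.25.

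The stretches upstream of the transcription starts of the 4 called genes are shown as sequence beside their signals. These genes share the difference they were chosen on, while their order of pools within a group differed. Each is the 250 bases before the start, from RefSeq on GRCm38.p6, with capitals where a script found one of 3 motifs on either strand. The motifs were GAGGAA, the core of the site of PU.1, a transcription factor of myeloid cells, TGAGTCA, the site of AP-1, and the E-box CACGTG, read by the MiT family of lysosomal regulators. None of the 3 overlaps another.
Lgals3, chr14:47373610-47373859, plus strand: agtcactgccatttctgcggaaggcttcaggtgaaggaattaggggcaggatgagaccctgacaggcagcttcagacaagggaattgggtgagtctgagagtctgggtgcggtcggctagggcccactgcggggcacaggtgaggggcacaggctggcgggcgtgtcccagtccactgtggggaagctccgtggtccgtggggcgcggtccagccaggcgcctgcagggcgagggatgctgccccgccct
Gpnmb, chr6:49036268-49036517, plus strand: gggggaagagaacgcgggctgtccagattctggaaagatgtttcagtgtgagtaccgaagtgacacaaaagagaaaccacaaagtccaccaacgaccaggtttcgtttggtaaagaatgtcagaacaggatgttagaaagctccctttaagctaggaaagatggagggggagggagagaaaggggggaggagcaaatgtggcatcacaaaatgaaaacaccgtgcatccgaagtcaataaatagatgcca
Cd68, chr11:69666171-69666420, minus strand: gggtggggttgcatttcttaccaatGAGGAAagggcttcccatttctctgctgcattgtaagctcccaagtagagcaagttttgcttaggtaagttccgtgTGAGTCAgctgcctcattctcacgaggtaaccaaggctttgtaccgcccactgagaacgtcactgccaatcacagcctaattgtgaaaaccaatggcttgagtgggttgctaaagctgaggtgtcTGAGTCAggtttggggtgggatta
Mpeg1, chr19:12460520-12460769, plus strand: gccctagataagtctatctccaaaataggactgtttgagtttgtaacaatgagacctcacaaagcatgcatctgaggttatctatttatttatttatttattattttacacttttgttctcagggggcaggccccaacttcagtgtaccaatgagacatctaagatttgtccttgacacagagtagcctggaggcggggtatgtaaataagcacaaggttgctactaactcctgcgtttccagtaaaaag

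Cd68 was the 1 of these 4 with a match. It held GAGGAA at -225 and TGAGTCA at -149 and -24, counted from the start to the first base of the match. The table held windows for 8 of the 9 genes, 10 windows in all, and GAGGAA or its reverse complement stood in 5 of the 10, those of Apoe, Cd68, Laptm5 and Trem2. It stood in 23.3% of all 32851 windows of that length. TGAGTCA stood in 4.46% of all windows and CACGTG in 6.02%, the latter in none of the 10. A match is a run of letters and no measured site.

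Trem2 is a receptor for lipids and debris on phagocytes and has no signalling tail of its own, so it pairs with the adaptor encoded by Tyrobp, also called DAP12, which carries the ITAM. The receptor and its adaptor differed in how well they were measured. Trem2 probe set 1421226_at had signals of 73.0, 37.1, 123.5 and 21.1 in normal replicates 1 to 4 and of 10.6, 101, 113.5 and 30.3 in dystrophic replicates 1 to 4. These scattered within both groups, and the groups overlapped throughout. The second Trem2 probe set, 1421792_s_at, lay between 11.2 and 22.2 in normal and between 18.8 and 29.1 in dystrophic pools. All 8 of its values, and 3 of the 8 of the first, were at or below the highest of the TrpnX negative controls, 32.2. The log2 differences were -0.10 (SE 0.56) and 0.23 (SE 0.19), from a fit with no filter. Whether Trem2 changed was not detectable at these signals.

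Tyrobp (1450792_at) was well above the controls. It had signals of 423, 481, 365 and 406 in normal replicates 1 to 4 and of 741, 629, 646 and 893 in dystrophic replicates 1 to 4. The groups did not overlap, and the lowest dystrophic pool was 1.31 times the highest normal pool. The means were 419 ± 47.8 and 727 ± 121 (SD, n = 4), a ratio of 1.74 and a log2 difference of 0.77 (SE 0.15), which was not called. Its value was alike in the 3 spike-in levels, at 0.78, 0.79 and 0.74. It passed with array weights, with robust hyperparameters and with the spike-in level as a block, and in none of the 8 fits that left out 1 array.

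Genes that signal with or beside such adaptors gave no call. Of 14 tested genes of immunoreceptor signalling, 11 lay above 0, the median log2 difference was 0.12 (-0.02 without the pair of arrays that stood apart), limma called 0, and 2 were under 0.05 before adjustment. Over all genes, each by 1 probe set, 48.5% lay above 0 and 6.57% were higher at an unadjusted p under 0.05 by limma. Sirpa, an inhibitory receptor of myeloid cells, had 338 ± 49.6 in normal pools and 519.8 ± 35.2 in dystrophic pools (SD, n = 4). Ptpn6, the phosphatase that such receptors recruit, had 365 ± 61.7 and 377 ± 63.8.

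Apoe (1432466_a_at) encodes apolipoprotein E, which carries cholesterol and other lipids and is made by macrophages, by liver and by other tissues. Its signal was 1165, 1343, 1251 and 830.2 in normal replicates 1 to 4 and 2229, 1878, 8827 and 2821 in dystrophic replicates 1 to 4. Dystrophic replicate 3 was far above the other dystrophic pools, and the groups did not overlap with or without it. The mean was 1148 ± 224 (SD, n = 4) in normal pools. In dystrophic pools it was 3939 ± 3282 (SD, n = 4), and 2309 ± 476 (SD, n = 3) without replicate 3. The ratio of means was 3.43 with replicate 3 and 2.01 without it. The log2 difference was 1.49 (SE 0.39), not called, and 1.00 without replicate 3, also not called. Within the spike-in levels it was 0.93, 2.80 and 1.11 in replicate 1, replicate 3 and replicates 2 and 4.

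Markers of hepatocytes were highest in the same pool. The 17 hepatocyte markers on the array summed to 80814 in dystrophic replicate 3, to 7262.5 to 11139 in the other dystrophic pools and to 4149.5 to 7604 in normal pools. Each of the 12 tested hepatocyte genes was above 0, against 48.5% of all genes. Fga, Fgg, Fabp1 and Apoc3 passed the filter only through their dystrophic signals. The median log2 difference of the 12 was 1.53, and 0.55 without the pair of arrays that stood apart. By limma 0 were called, and 4 were higher at an unadjusted p under 0.05, against 6.57% of all genes. Alb, serum albumin, had 750.4 ± 399 in normal pools and 6160.5 ± 7978 in dystrophic pools (SD, n = 4). Cyp2e1, a liver cytochrome P450, had 1792 ± 352 and 4200.4 ± 3136. No hepatocyte marker was at the level of the negative controls in every array, and the part of these transcripts in the Apoe signal was not tested. Of the 10 tested member probe sets, those of Apoe and Mpeg1 were highest among dystrophic pools in replicate 3. Mpeg1 had 637 there against 465 to 528, and Lgals3 had 844, its second highest value. Lgals3, Gpnmb, Cd68, Tyrobp and Lyz2 were highest in replicate 4.

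**Figure D3:**
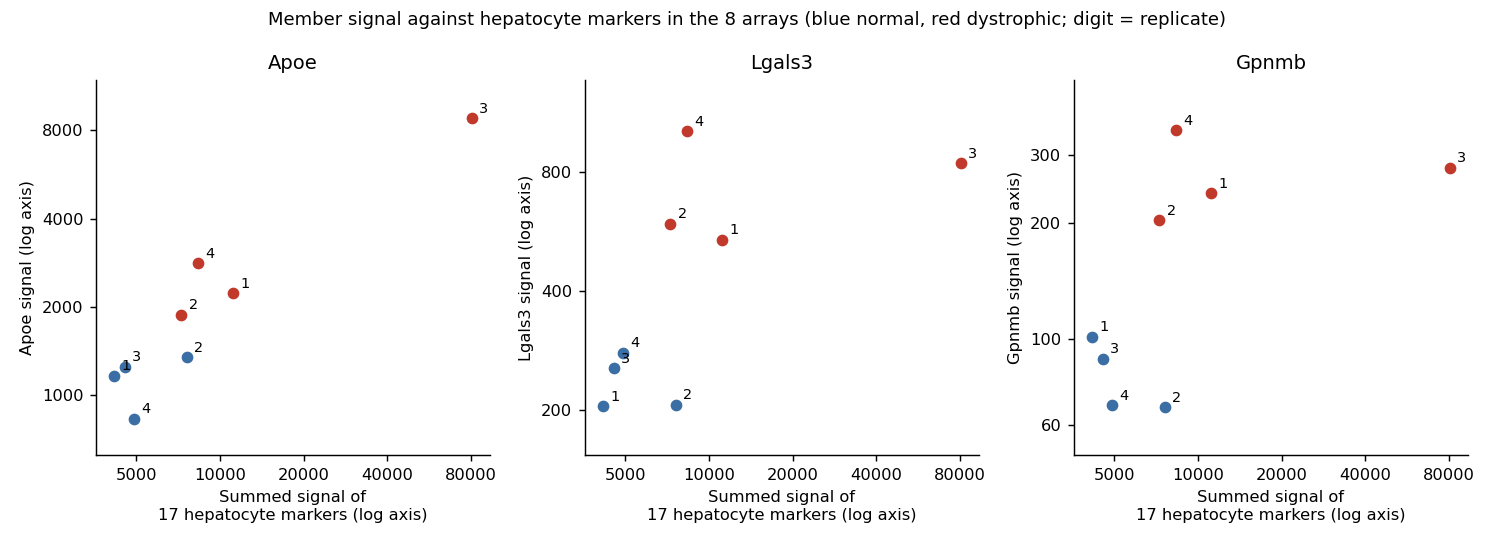
Signals of Apoe, Lgals3 and Gpnmb against the summed signal of 17 hepatocyte markers in the 8 arrays, all axes logarithmic, blue for normal and red for dystrophic, with the replicate number beside each point. Dystrophic replicate 3, at a sum of 80814, has the highest Apoe signal, 8827, while the highest Lgals3 and Gpnmb signals are in replicate 4.

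Among receptors and partners of apolipoprotein E, 1 of 6 tested genes rose, 0 fell and 5 did not pass. It was Lrp1, a large endocytic receptor that also clears apoptotic debris. Lrp1 rose by 0.72 on the log2 scale (SE 0.13, limma adjusted p = 0.0361), with means of 955 ± 136 and 1569 ± 68.9 (SD, n = 4) and no overlap between groups. Over all genes, each by 1 probe set, 0.597% were called as higher and 0.0487% as lower. The Lrp1 value lay between 0.65 and 0.80 in 22 alternatives and passed in 12 of them, with adjusted p up to 0.215. It was lost on the values as deposited, with no intensity trend, without the pair of arrays that stood apart, and in each fit that left out 1 array other than normal replicate 2. Genes of lipid handling gave no call among 12 tested, with a median of -0.03. By limma 3 had an unadjusted p under 0.05, all higher, against 6.57% of all genes. These 3 were Apoc1, at a log2 difference of 1.61 (SE 0.66), Abca1, at 0.60 (SE 0.16), and Cd9, at 0.34 (SE 0.13). The 2 brightest genes of the list were Lpl and Cd36. Lpl, lipoprotein lipase, had 20794 ± 5996 in normal pools and 16247 ± 1248 in dystrophic pools (SD, n = 4), and Cd36, a fatty acid and scavenger receptor, 8097 ± 1162 and 6964 ± 678.

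Lyz2 (1423547_at) encodes the lysozyme of macrophages and neutrophils, an enzyme that cuts bacterial cell walls. It had signals of 2050, 3704, 2055 and 2278 in normal replicates 1 to 4 and of 4017, 3677, 4003 and 4504 in dystrophic replicates 1 to 4. The groups overlapped through normal replicate 2, which lay just above dystrophic replicate 2. The means were 2522 ± 795 and 4050.1 ± 341 (SD, n = 4), a ratio of 1.61 and a log2 difference of 0.72 (SE 0.18), not called. Without normal replicate 2 the difference was 0.92 and was called, the 1 alternative of 22 in which it was. Within the spike-in levels it was 0.97, 0.96 and 0.48 in replicate 1, replicate 3 and replicates 2 and 4.

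Lyz1 is a near-identical neighbour of Lyz2 that is made mainly by Paneth cells of the gut, and probe sets of either gene may take up transcripts of the other. Lyz1 probe set 1436996_x_at, of a type that Affymetrix marks as prone to cross-hybridise, had signals of 1816, 4097, 1610.0 and 1953 in normal replicates 1 to 4 and of 2553, 4131, 4602 and 5447 in dystrophic replicates 1 to 4. Normal replicate 2 stood out here too. Its log2 difference was 0.87 (SE 0.30) and was not called. Probe set 1439426_x_at was at 0.47 (SE 0.27), not called. The third, 1450822_at, fell below the filter, with signals of 68.0 to 193 over all arrays. Its log2 difference was -0.22 (SE 0.31), from a fit with no filter. How far each of these probe sets measured Lyz2 or Lyz1 was not tested, so the values of both genes are uncertain in that respect.

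Laptm5 encodes a lysosomal membrane protein of blood cells, and its 3 probe sets differed among themselves. Probe set 1436905_x_at is of the x_at type that Affymetrix marks as prone to cross-hybridise. The part of other transcripts in its signal was not tested. It had signals of 58.3, 186, 135 and 104 in normal replicates 1 to 4. In dystrophic replicates 1 to 4 they were 207, 427, 340.4 and 404. These groups did not overlap, and the lowest dystrophic pool was 1.11 times the highest normal pool. The log2 difference was 1.44 (SE 0.31), not called, and it was 1.40 without the pair of arrays that stood apart. It was called with array weights (1.37), and with the replicate number or the spike-in level as a block (1.44 in both).

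The remaining Laptm5 probe sets overlapped between groups. Probe set 1426025_s_at had 430.8, 671, 389 and 379 in normal replicates 1 to 4 and 610.5, 762, 393 and 632 in dystrophic replicates 1 to 4, a log2 difference of 0.35 (SE 0.23). Dystrophic replicate 3 lay among the normal pools there. Probe set 1417721_s_at lay between 95.8 and 194 in normal and between 109 and 203 in dystrophic pools, a difference of 0.21 (SE 0.24). Neither was called, and the mean over all 3 probe sets was at 0.67, not called. In all 3, normal replicate 2 was the highest normal pool.

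The same pools were high or low for several of the 10 tested probe sets. Normal replicate 2 was the highest normal pool in 7 of them, those of Mpeg1, Tyrobp, Apoe, Lyz2 and Laptm5, and the lowest for Gpnmb and Cd68. Dystrophic replicate 4 was the highest dystrophic pool in 5, those of Lgals3, Gpnmb, Cd68, Tyrobp and Lyz2, and the lowest in none. Dystrophic replicate 2 was the lowest dystrophic pool in 6. These are descriptions of 4 pools per group, and the order of pools was not tested.

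Profiles over the 8 arrays were compared with that of Lgals3 by the root mean square difference of log2 values, each gene first set to its own mean. Gpnmb was the third nearest of 8213 genes, at 0.26, with Cd68 at rank 21 (0.38), Tyrobp at rank 61 (0.50), Mpeg1 at rank 62 (0.50), Lyz2 at rank 140 (0.57), Apoe at rank 201 (0.60) and Laptm5 at rank 2164 (0.81). The median over all genes was 0.87. This distance includes the difference between groups, on which the members were chosen. The ranks of the members therefore follow in part from that choice and are no test of a shared profile. Gpnmb and Mpeg1 were ranked only because their dystrophic signals took them past the filter. The 8 nearest genes outside the set were Ncam1 (0.16), S100a4 (0.22), Tnnt2 (0.28), Myog (0.30), Dsp (0.31), Dclk1 (0.31), Thbs4 (0.31) and Mybph (0.31). Ncam1 is an adhesion molecule of nerve and of regenerating fibres, Tnnt2 a troponin of heart and immature muscle, Myog the myogenic factor myogenin and Mybph a myosin-binding protein. S100a4 is a calcium-binding protein of fibroblasts and leukocytes, Dsp the desmosomal protein desmoplakin, Dclk1 a kinase of microtubules and Thbs4 a matrix protein of tendon and muscle.

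**Figure D4:**
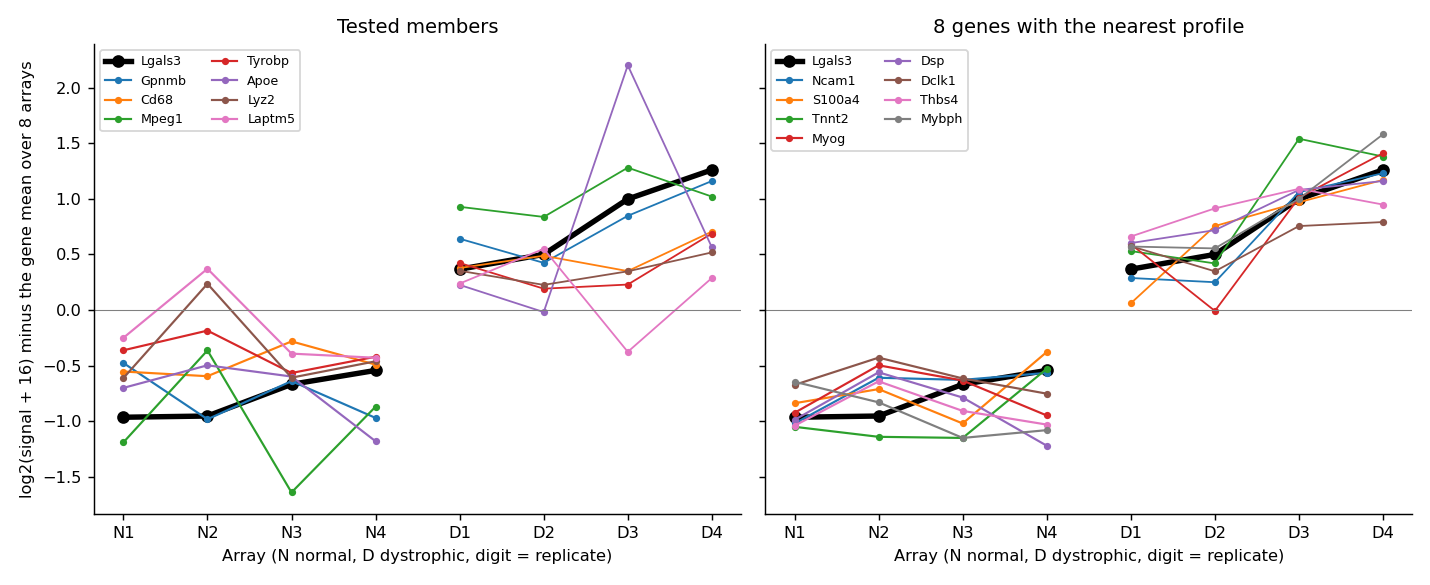
Centred log2 values in each array, for the tested members on the left and for the 8 genes with the nearest profile on the right, with Lgals3 in black in both panels. Each gene is shown by its brightest tested probe set, which for Laptm5 is 1426025_s_at. Lines join values of 1 gene within a group only to ease reading, since replicates have no order. The genes on the right lie within 0.16 to 0.31 of Lgals3 by root mean square difference, and the Apoe point of dystrophic replicate 3 stands at 2.20 on the left.

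These 8 genes were picked for nearness to a gene that separates the groups, so a difference in the same direction follows from the pick and is given with no test. Their log2 differences ran from 1.23 (SE 0.18) for Dclk1 to 1.93 (SE 0.28) for Tnnt2. Ncam1 was at 1.41 (SE 0.24), S100a4 at 1.47 (SE 0.23) and Thbs4 at 1.81 (SE 0.14). Ncam1, Tnnt2, Dsp, Dclk1 and Mybph had normal means of 109, 78.8, 96.9, 81.9 and 114, under the filter level of 121.9. They passed the filter only through their dystrophic signals.

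Other markers of macrophages and monocytes lay higher in dystrophic muscle, though few passed singly. That list had 23 tested genes, of which 21 were above 0. By limma 1 rose, 0 fell and 22 did not pass, and 1 rose without the pair of arrays that stood apart. The median log2 difference was 0.66, against -0.01 over all 8214 genes, and 0.59 without that pair. In 13 of the 23 every dystrophic pool lay above every normal pool, against 4.7% of all genes, and 15 were higher at an unadjusted p under 0.05 by limma, against 6.57% of all genes. Over all genes 0.597% were called as higher. The list was chosen with earlier results of these data known, so these counts are a description. Fcer1g, Msr1 and Clec4n passed the filter only through their dystrophic signals. Ctss, the lysosomal protease cathepsin S, rose by 1.33 on the log2 scale (SE 0.16, limma adjusted p = 0.00451). Its means were 375 ± 79.2 and 955 ± 117 (SD, n = 4), and it was called in all 22 alternatives. Marco, a scavenger receptor of resident macrophages, was at the level of the negative controls in every array. The summed signal of the 29 markers on the array was 8232 to 9466 in normal and 12041 to 14232 in dystrophic pools.

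The lysosome list, which does not hold Ctss, and the engulfment list, which does not hold Lrp1, gave no call, although 1 gene of the lysosome list was called without the pair of arrays that stood apart. Of 33 tested genes of the lysosome list, 20 lay above 0, the median was 0.16 and limma called 0. It gave 15 at an unadjusted p under 0.05, of which 14 were higher. Of all genes, 48.5% lay above 0 and 6.57% were higher at that threshold. In 9 of the 33 every dystrophic pool lay above every normal pool, against 4.7% of all genes, and the reverse held for 0. The log2 differences of the list ran from -0.78 for Laptm4b to 1.12 for Ctsk. The 2 brightest genes of the list were Lamp1 and Laptm4a. Lamp1, a major glycoprotein of the lysosomal membrane, had 8253 ± 1568 in normal pools and 7217 ± 613 in dystrophic pools (SD, n = 4), and Laptm4a, a relative of Laptm5, 10378 ± 1171 and 9691 ± 838. Of 16 engulfment receptors and motor genes, 13 lay above 0, against 48.5% of all genes, and the median was 0.19. By limma 5 had an unadjusted p under 0.05, all higher, against 6.57% of all genes. Cd300a passed the filter only through its dystrophic signals. Gas6, a bridging protein between dying cells and phagocytes, had 3917 ± 231 and 3938 ± 468, and Calr, calreticulin, an eat-me signal when exposed on the surface, 5687 ± 899.6 and 5103 ± 716. Receptors for osteopontin had 5 of 6 tested genes above 0, against 48.5% of all genes, and a median of 0.33. Limma called 0, and 1 was higher at an unadjusted p under 0.05, against 6.57% of all genes. It was Itga5, at 0.83 (SE 0.20), which passed the filter only through its dystrophic signals. In that list Itgb1, the integrin β1 chain, had 2577 ± 393 and 2929.6 ± 161, and Itgb5, the β5 chain, 2305 ± 658 and 2199 ± 326. Itgb3, the β3 chain, was at the level of the negative controls.

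**Figure D5:**
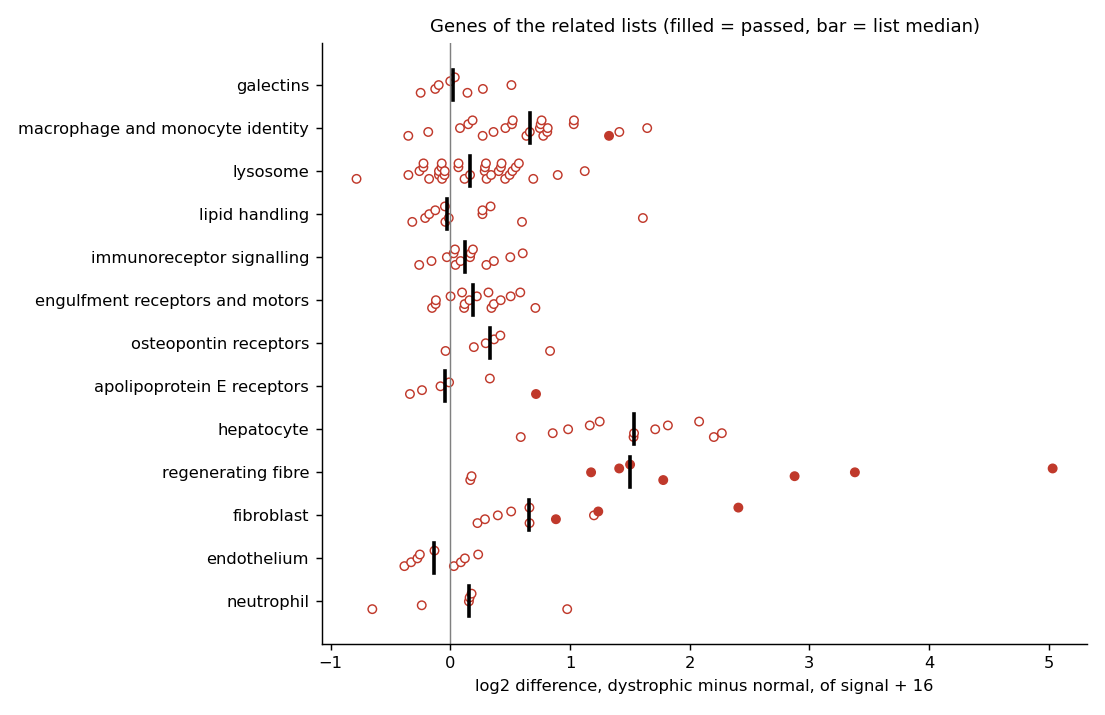
The log2 difference of each tested gene, dystrophic minus normal, in the related lists and in 5 of the cell type lists. Filled points were called and black bars are list medians. The macrophage and monocyte list has its median at 0.66, the galectin list at 0.02 and the regenerating fibre list at 1.5.

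Several other cell types also had higher marker signals in dystrophic muscle. Of 9 tested markers of regenerating fibres 7 rose and 0 fell, against 0.597% and 0.0487% of all genes. Without the pair of arrays that stood apart 5 rose. The cell type lists were chosen with earlier results of these data known, so such counts are a description. Myh3, Myh8, Ncam1 and Dsp passed the filter only through their dystrophic signals. Ncam1 and Myog lost their calls in 8 of 20 and 9 of 22 alternatives, among them each fit that left out 1 normal array. Myh3, embryonic myosin heavy chain, rose by 5.03 on the log2 scale (SE 0.21, limma adjusted p = 7.02e-07). Its means were 9.26 ± 1.40 and 833 ± 229 (SD, n = 4), the normal one inside the range of the negative controls. Myl4, Myh8 and Dsp rose by 3.38, 2.88 and 1.78. The summed signal of the 10 markers was 1894 to 2073 in normal and 5651.5 to 8814 in dystrophic pools. Of 10 fibroblast markers 3 rose and 0 fell, against the same shares of all genes, with 2 rising without that pair. They were Postn, periostin, by 2.41 (SE 0.32, limma adjusted p = 0.00738), Lum, lumican, by 1.24 (SE 0.14, adjusted p = 0.00405) and Col1a2, a chain of collagen I, by 0.88 (SE 0.14, adjusted p = 0.0167). Their 10 markers summed to 29377 to 36974 in normal and 44034 to 56725.5 in dystrophic pools. The Col1a2 call was lost without normal replicate 1, dystrophic replicate 2, 3 or 4, or that pair, and when the probe sets of a gene were averaged, with limma adjusted p up to 0.0861. The part of regenerating fibres and fibroblasts in the signals of the macrophage genes was not tested.

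Markers of neutrophils, lymphocytes, mast cells, dendritic cells, endothelium, adipocytes, mesothelium, lung epithelium and pigment cells gave no call by limma. Of the markers on the array, 6 of 13 were tested for neutrophils, 2 of 12 for lymphocytes and 4 of 8 for mast cells. For dendritic cells it was 3 of 7, for endothelium 9 of 9 and for adipocytes 3 of 5. For mesothelium it was 6 of 6, for lung epithelium 2 of 8 and for pigment cells 4 of 6. The 2 lymphocyte genes tested were Cd79a and Ms4a1, and markers under the filter had no test. At an unadjusted p under 0.05 there were 2 neutrophil, 1 dendritic and 2 endothelial genes and 0 of the other lists. The dendritic and endothelial genes were lower, and the share of all genes that were lower at that threshold was not computed. The share that were higher at it was 6.57%, which is no measure for these lower genes. For neutrophils, which share Lyz2 with macrophages, the 13 markers summed to 1417 to 2105 in normal and 1391 to 2349 in dystrophic pools, the pair of genes past that threshold was split between directions, and Prtn3 was at the level of the negative controls. Lcn2, lipocalin 2, had 242 ± 83.3 and 476 ± 45.3 (SD, n = 4), and Ngp, a neutrophil granule protein, 232 ± 28.6 and 265 ± 68.5. For pigment cells, which share Gpnmb with phagocytes, the 6 markers summed to 689.9 to 1134 in normal and 735.6 to 1056 in dystrophic pools. There Slc45a2 had 275 ± 63.5 and 267 ± 96.0, and Tyr, tyrosinase, 188 ± 78.4 and 136 ± 25.3. None of these summed signals separated the groups.

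The remaining lists overlapped between groups in their summed signals. Lymphocyte markers summed to 691 to 869 in normal and 673.8 to 821 in dystrophic pools, and Cd3d and Nkg7 were at the level of the negative controls, which are the TrpnX probe sets. Mast cell markers summed to 1204 to 1766 and 1338 to 1670, and dendritic cell markers to 700.0 to 902 and 644 to 939.9, with Hdc and Ccr7 at that level too. Endothelial markers summed to 5683 to 6486 and 4895 to 6484, and adipocyte markers to 1651 to 3177 and 1287 to 3418. Mesothelial markers summed to 4549 to 6108 and 4224 to 6301, and lung epithelial markers to 646 to 830 and 504 to 752.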

How the data were processed

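The table holds MAS5 signal intensity values on a linear scale, which the authors deposited, and MAS5 is named in the submitters' processing notes. The sources used here give neither its version nor its scaling target. As deposited, 7 arrays had a 2% trimmed mean of 500.2, while that of normal replicate 4 was 400.2, and all were rescaled to 487.7, the mean over arrays. No counts lie behind these values, and 4 arrays per group limit the precision. Controls and the lowest 40% of probe sets by mean log2(signal + 16) were left out, and 13575 remained. The test was limma (version 3.58.1, R version 4.3.3), using lmFit, eBayes with a trend in intensity, and Benjamini-Hochberg adjustment. It was tested on simulated data. Symbols came from the platform annotation where it gives 1 symbol, updated by Entrez identifier through RefSeq (20351 of 20380 matched). A gene in a list was represented by its brightest tested probe set. Alternatives were other offsets, scalings, filters and variance settings, arrays left out, and the replicate number or spike-in level as a block. Figures used matplotlib 3.10.9.

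The members and all lists were chosen with earlier results of these data known. Genes named by rule were the members, Lama2 and the 8 genes nearest to Lgals3. Of each list these were up to 4 called genes, or its 2 brightest where none was called. Lyz1 was described beside Lyz2, and others were named beside the counts of their list.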

Additional observations from a re-analysis of the deposited data

Results flagged for a closer look

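In a group of 4 arrays, an array was singled out where its gap to the nearest other array, divided by the range of the group on the log2 scale, exceeded Dixon's 95% critical value. Of 132 combinations of gene and group, 9 did so (6.82%), and chance gives about 1 in 20. None of the 12 member probe sets was among them, and Apoe in the dystrophic group, with replicate 3 high, reached 0.738. Lamp1 was low in dystrophic replicate 3 (6303, against 7456 to 7603, ratio 0.896). Sirpa was high in dystrophic replicate 3 (572, against 499.5 to 506, ratio 0.901). Alb was high in normal replicate 2 (1347, against 521 to 579.7, ratio 0.889). Cma1, a mast cell chymase, was high in dystrophic replicate 1 (415, against 341 to 351, ratio 0.862). Retn, the adipocyte hormone resistin, was low in dystrophic replicate 4 (353, against 571 to 605, ratio 0.891). Sftpc, a lung surfactant protein, was low in normal replicate 2 (103.5, against 136 to 139, ratio 0.924). Atp2a1, the calcium pump of fast fibres, was high in dystrophic replicate 1 (28850, against 24430 to 24850, ratio 0.898). Ncam1 was low in normal replicate 1 (83.8, against 115 to 121, ratio 0.862). Tnnt2 was high in normal replicate 4 (110.3, against 66.2 to 71.9, ratio 0.842).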

How the results depend on the processing

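The number of called probe sets, 67, was 127 with array weights, 105 with the replicate block, 114 with the spike-in level as a block, 31 without the pair of arrays that stood apart and 24 at a threshold of 0.01, and ranged from 25 to 61 when 1 array was left out. The number of called member genes, 4, was 2 without the pair of arrays that stood apart, 1 with the lowest 60% of probe sets left out, where Gpnmb, Cd68 and Mpeg1 were no longer tested, and 3 to 4 when 1 array was left out. Called genes of the 8 related lists, 2, numbered 5 with array weights, 5 with the replicate block, 4 with the spike-in level as a block, 1 on the values as deposited and 1 at a threshold of 0.01, and 1 to 3 when 1 array was left out. Called genes of the 13 cell type lists, 10, numbered 6 with the lowest 60% left out and 6 to 9 when 1 array was left out. The cause of these differences was not tested, apart from the fewer probe sets or arrays in some fits. Of 1310 values of single probe sets and genes under the alternatives, 43 were lost calls of genes outside the member set. Member values were held only to their spread between pools, and beyond those 43 the calls of Cd68 were lost 5 times and that of Gpnmb 1 time. Among values with no test 3 moved by more than 1 SD, and no called value changed sign. Deviations from the group mean of same-numbered arrays correlated at 0.484, -0.0455, 0.145 and 0.133 for replicates 1 to 4. Since 1 of the 4 was not over 0.1 and the labels name nothing shared, the numbers were not treated as pairs. Same-numbered arrays did share a spike-in level, with replicates 2 and 4 at the same level. Replicate 1 of both groups stood at 33.9 and 25.9 on the second principal component, against -16.8 to -2.48 elsewhere. Normal replicates 2 and 4 correlated best with another number. With the replicate block the members Lgals3, Gpnmb, Cd68 and Mpeg1 stayed called at the same log2 differences, and the Laptm5 probe set 1436905_x_at was called. Signals near those of the negative controls, as for Trem2, limit what could be seen.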
